A study of Mus musculus with 13 samples.

Results

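The genes described here are 55 protein-coding genes of the distal end of mouse chromosome 14, listed by symbol and lying beyond about 92 Mb of that chromosome, from Pcdh9 to Fgf14. All 55 were found by Ensembl identifier among the 49671 genes of the joint count table, of which 1783 lie on chromosome 14, and 53 were found in the replicate libraries. They were chosen by their position and by counts in the single libraries that were mostly higher in ES cells carrying dCas9-OGA than in controls, so their values in the comparisons of dCas9-OGA are a description without a test. The label of the list holds for part of it: of them 30 were higher by 2-fold or more in dCas9-OGA than in its inactive control, 2 were at least 2-fold lower, 8 lay between, and 15 had too few counts to be read.

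RNA was sequenced from mouse embryonic stem (ES) cells grown in serum and leukaemia inhibitory factor. The dCas9-OGA cells were wild-type AinV15 ES cells with a doxycycline-induced fusion of catalytically dead Cas9 and O-GlcNAcase, directed by 4 sgRNAs to intracisternal A particle (IAP) retrotransposons. The dCas9-OGA-D242A cells carried the same fusion with a substitution in O-GlcNAcase that removes its activity, and the same 4 sgRNAs, and are called the D242A control below. The methods describe selected recombinant AinV15 cells for dCas9-OGA, and for the D242A form only how the mutation was made. They do not say how many clones were sequenced. Each fusion was sequenced in 1 library, and the same table holds 1 WT and 1 Dnmt1-/- library that the labels tie to no further description. In a separate set, 3 WT libraries came from untreated AinV15 cells and 3 Dnmt1-/- libraries from the untreated D1-null line (C allele), which lacks the maintenance DNA methyltransferase. These are different lines, so genotype and cell line cannot be told apart, and nothing says whether the 3 replicates came from separate cultures.

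O-GlcNAc is a single sugar that one enzyme, OGT, adds to serine and threonine residues of nuclear and cytoplasmic proteins and another, O-GlcNAcase (OGA), removes. Tethering OGA through dCas9 removes the sugar near the guide's target, and IAP elements are methylated retrotransposons scattered over all mouse chromosomes. The listed genes share a chromosome segment and not a pathway: they include the ES cell factor Klf5, the neural zinc finger factors Zic2 and Zic5, the nuclear import receptor Ipo5, the exosome ribonuclease Dis3, cell division proteins, membrane transporters and many genes used mainly in neurons.

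The sequences shown first are of genes whose values mark the segment. RefSeq windows (GRCm38.p6) from 250 bases before to 50 bases after a transcription start were matched for 48 of the 55 genes. Dis3 and Pibf1 are transcribed away from each other, were both higher in dCas9-OGA, and their annotated genes overlap by 347 bases at their starts. Klf12 did not differ beyond counting error and Zic5 was lower. The Klf12 window follows a RefSeq start inside the annotated gene, whose own start lies upstream at 100284679. Each CpG, the dinucleotide that DNA methyltransferases modify, is in capitals.
Dis3, chr14:99099721-99100020, minus strand: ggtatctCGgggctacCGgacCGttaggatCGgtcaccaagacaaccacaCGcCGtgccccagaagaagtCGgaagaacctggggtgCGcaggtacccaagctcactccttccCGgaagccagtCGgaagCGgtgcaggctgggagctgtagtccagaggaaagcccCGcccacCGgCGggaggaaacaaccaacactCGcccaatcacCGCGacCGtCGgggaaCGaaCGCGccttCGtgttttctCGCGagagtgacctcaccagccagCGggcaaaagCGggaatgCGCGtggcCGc
Pibf1, chr14:99099174-99099473, plus strand: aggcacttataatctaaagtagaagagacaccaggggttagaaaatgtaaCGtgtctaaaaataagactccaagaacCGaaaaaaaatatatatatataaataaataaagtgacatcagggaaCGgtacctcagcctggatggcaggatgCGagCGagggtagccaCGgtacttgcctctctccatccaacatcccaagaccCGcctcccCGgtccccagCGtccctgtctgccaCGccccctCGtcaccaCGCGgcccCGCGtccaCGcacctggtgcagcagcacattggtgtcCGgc
Klf12, chr14:100149747-100150046, minus strand: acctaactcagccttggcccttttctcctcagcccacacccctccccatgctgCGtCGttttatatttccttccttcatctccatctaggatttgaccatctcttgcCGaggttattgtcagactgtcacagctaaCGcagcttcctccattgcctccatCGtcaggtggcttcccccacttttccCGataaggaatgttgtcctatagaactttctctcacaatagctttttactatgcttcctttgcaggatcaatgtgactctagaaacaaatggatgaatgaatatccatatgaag
Zic5, chr14:122465609-122465908, minus strand: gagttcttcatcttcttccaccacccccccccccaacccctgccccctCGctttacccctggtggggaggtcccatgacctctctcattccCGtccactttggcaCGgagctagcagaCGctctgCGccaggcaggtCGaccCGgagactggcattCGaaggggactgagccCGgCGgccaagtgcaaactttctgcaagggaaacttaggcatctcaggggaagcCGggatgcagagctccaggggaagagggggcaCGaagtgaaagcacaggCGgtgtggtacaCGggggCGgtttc

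The letters CG occurred 30 times in the Dis3 window, 17 times in that of Pibf1, 15 times in that of Zic5 and 6 times in that of Klf12. CG reads the same on both strands, and a gene with several windows was counted by the one with most. The 26 genes that were at least 2-fold higher and had a window held 10 to 57 CpGs, with a median of 29.5. Of these, 23 had at least 15. Over the 27025 genes with a window 37.1% reached 15, and among the 9130 with at least 100 counts in both fusion libraries together 78.5% did. The other 7 listed genes with enough counts and a window held 6 to 30 CpGs (median 22), and the 15 with few counts held 3 to 41 (median 12).

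The segment also holds the host transcript of the miR-17-92 cluster, Mir17hg (chr14:115042879-115046727, plus strand), a long noncoding RNA outside the list whose 6 hairpins are among the best known growth-promoting miRNAs. Its mature miRNAs are shown with bases 2 to 8, the seed, in capitals, and fall into 4 seeds.
mmu-miR-17-5p: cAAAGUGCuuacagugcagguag
mmu-miR-20a-5p: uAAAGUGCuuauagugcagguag
mmu-miR-18a-5p: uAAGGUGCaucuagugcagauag
mmu-miR-19a-3p: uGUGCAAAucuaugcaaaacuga
mmu-miR-19b-3p: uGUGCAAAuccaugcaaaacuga
mmu-miR-92a-3p: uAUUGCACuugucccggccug
miR-17-5p and miR-20a-5p share one seed, miR-19a-3p and miR-19b-3p another, and miR-18a-5p and miR-92a-3p have one each. Only the host transcript was counted in these libraries, with 483 counts in dCas9-OGA, 123 in dCas9-OGA-D242A, 186 in WT and 130 in Dnmt1-/-. It was 3.66-fold higher in dCas9-OGA than in the D242A control. The mature miRNAs were not measured.

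The single libraries held 24955180 counts on genes (dCas9-OGA), 24828078 (its D242A control), 25097983 (WT) and 18693531 (Dnmt1-/-). Ratios below are differences of log2(cpm + 0.5), cpm being counts per 1000000 counts of the library after edgeR's TMM scaling, and a gene entered a comparison with at least 100 counts summed over its 2 libraries. Ranges given with a single-library ratio are 95% Wilson intervals and cover counting error only. The 10 ES cell markers summed to 5406 cpm in dCas9-OGA, 4203 in the D242A control, 5280 in WT and 4121 in Dnmt1-/-, and none was at 0. Their median log2 ratio of dCas9-OGA to the D242A control was 0.52, with Nanog 2.09-fold higher and Dppa3 at 32 against 729 counts. Primitive endoderm markers summed to 28.5 cpm in dCas9-OGA, 10.2 in dCas9-OGA-D242A, 37.7 in WT and 12.6 in Dnmt1-/-, with 3 of the 4 measured at least 2-fold higher in dCas9-OGA than in the D242A control. In the same order, fibroblast markers summed to 57.0, 73.8, 60.4 and 34.1 cpm, and neural crest and melanocyte markers to 109, 80.6, 155 and 136. Each of these lists had 2 markers at least 2-fold lower in dCas9-OGA than in the D242A control, while Foxd3 of the second was 3.36-fold higher. Neural markers summed to 61.7, 160, 173 and 241 cpm in the same order, most of it Tubb3 (23.2, 125, 145 and 208). Without it, a sum added after the values were seen, the other 7 gave 38.6, 35.6, 27.2 and 33.1. They did not move together: Pax6 had 9, 124, 140 and 234 counts and Sox1 332, 31, 70 and 31. The 2-cell-like markers summed to 0.564, 1.65, 35.5 and 1.37 cpm, so the WT library stood apart in them. The part of these marker differences in the results was not tested.

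In dCas9-OGA the 55 genes took 0.852% of the library's counts (0.849 to 0.856), against 0.273% in dCas9-OGA-D242A, 0.231% in WT and 0.252% in Dnmt1-/-. Ipo5 alone carried much of this, yet without it the shares were 0.487%, 0.152%, 0.162% and 0.147%. That the dCas9-OGA share was the highest follows in part from the choice of the list, and the 3 others lay close together.

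Of the 55 genes, 40 had at least 100 counts in dCas9-OGA and dCas9-OGA-D242A together. Their median log2 ratio was 1.497, a 2.82-fold difference, with quartiles at 1.13 and 1.86. At least 2-fold higher were 30 of the 40, where 4.88% of the 12722 genes measured were; at least 2-fold lower were 2, where 7.22% of all genes were. The interval lay above equality for 35 genes, below it for 2 and held it for 3. Such intervals are narrow where counts are high, and the share of all genes whose interval excludes equality was not computed. Among the 30 the fold ran from 2.29 for Rnf219 and Ggact to 6.36 for Pibf1 with a median of 3.19, and 19 of them lay between 2.5-fold and 4.5-fold. Against WT, 40 genes were measured, with a median of 1.62, 31 at least 2-fold higher (background 14%) and 2 lower (background 9.78%). In both comparisons, which share the dCas9-OGA library and so do not check each other, 27 of 40 genes were at least 2-fold higher. The share of all genes at least 2-fold higher in both was not computed.

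**Figure D1:**
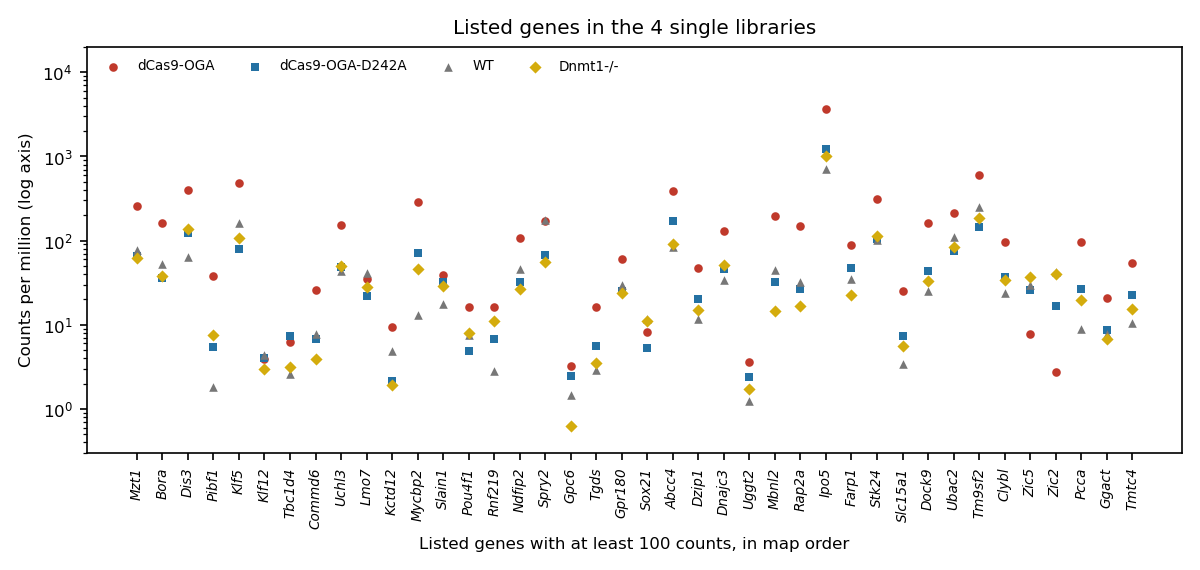
Level in cpm (y axis, log scale) of the 40 listed genes with at least 100 counts in dCas9-OGA and dCas9-OGA-D242A, in map order, with 1 point for each of the 4 single libraries. The red dCas9-OGA point is the highest for most genes, Ipo5 is the most abundant in each library, and Zic5 and Zic2 are lowest in dCas9-OGA.

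The first 3 genes of the list in map order had few or no counts in the single libraries. Pcdh9, a neuronal protocadherin, had 0 counts in dCas9-OGA and dCas9-OGA-D242A, 2 in WT and 1 in Dnmt1-/-. Klhl1, a neuronal kelch-like protein, was at 0 in all 4 libraries. Dach1, a nuclear cofactor of eye and limb development, had 11, 15, 11 and 2 counts in dCas9-OGA, dCas9-OGA-D242A, WT and Dnmt1-/-, the order in which counts are given from here on. The list thus began to show a difference only at Mzt1, the next gene.

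From Mzt1 to Klf5, 5 neighbouring genes were all higher in dCas9-OGA. Mzt1, a small subunit of the gamma-tubulin ring complex that nucleates microtubules, had 6350, 1622, 1943 and 1189 counts, a log2 ratio to dCas9-OGA-D242A of 1.96 (1.89 to 2.05). Its divergent neighbour Bora, whose start lies 88 bases away and whose product activates the mitotic kinase Aurora A, had 4036, 905, 1294 and 714 counts, a ratio of 2.14 (2.05 to 2.26). Dis3, the exosome's catalytic ribonuclease, had 9811, 3041, 1596 and 2589 counts and a ratio of 1.69. For each of these genes dCas9-OGA was the highest library.

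Pibf1, which encodes a centrosome protein needed for cilia and whose annotated start overlaps that of Dis3, had 931, 136, 45 and 145 counts. Its ratio of 2.67 (2.52 to 3.04), or 6.36-fold, was the highest of the list, and it was 16.4-fold higher than WT. WT was the lowest library for both genes of the pair, and reads in the stretch where they overlap could have been counted for neither or either. Klf5, a Krüppel-like transcription factor that supports ES cell self-renewal, had 12014, 1994, 4018 and 2062 counts, a ratio of 2.59 (2.52 to 2.66) to dCas9-OGA-D242A and of 1.58 to WT.

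Klf12 and Tbc1d4, the next genes on the map, did not follow. Klf12, a Krüppel-like repressor, had 97, 101, 109 and 56 counts, and its interval of -0.46 to 0.34 held equality. Tbc1d4, a Rab GTPase-activating protein known for insulin-regulated glucose uptake, had 153, 183, 65 and 60 counts; its ratio to dCas9-OGA-D242A was -0.24 (-0.57 to 0.05), while it was 1.09 to WT. Both had low levels, and both lie between genes with large differences, Klf5 before them and Commd6 after them.

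Beyond Tbc1d4, Commd6 (650, 170, 194 and 74 counts) and the ubiquitin hydrolase Uchl3 (3810, 1199, 1072 and 940) were again 3.64-fold and 3.16-fold higher in dCas9-OGA than in the D242A control. Lmo7, an adhesion-associated LIM protein, had 875, 550, 1020 and 542 counts and was highest in WT. Mycbp2, a very large neuronal E3 ubiquitin ligase, had 7167, 1757, 328 and 873 counts. Its ratio was 2.02 (1.95 to 2.11) to dCas9-OGA-D242A and its fold to WT 21.1, and WT was also below the other control libraries.

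Among the genes that follow, Slain1, a microtubule plus-end protein, had 977, 792, 432 and 548 counts and a ratio of only 0.30 (0.17 to 0.44). Ednrb, the endothelin receptor of neural crest cells, had 16, 6, 6 and 4 counts, too few for a ratio. Pou4f1, a POU factor of sensory neurons, had 402, 123, 190 and 151 counts and was 3.06-fold higher in dCas9-OGA than in the D242A control. Spry2, a feedback inhibitor of receptor tyrosine kinase signalling, had 4212, 1701, 4407 and 1069 counts. It was 2.47-fold higher than in the D242A control but had about the level of WT, with a ratio of -0.07. For Spry2 the choice of control thus decided whether dCas9-OGA was higher.

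The middle of the segment gave few counts in the single libraries: Slitrk1, Slitrk5, Gpc5 and Dct had at most 46 counts in any library. Gpc6, a cell-surface glypican, had 80, 61, 36 and 12 counts and an interval of -0.09 to 0.87 that held equality. Gpr180, a membrane protein of the G-protein-coupled receptor-like group, had 1510, 635, 742 and 455 counts and was 2.35-fold higher in dCas9-OGA than in the D242A control. Sox21, a neural HMG-box factor, had 206, 131, 289 and 213 counts, a ratio of 0.61 (0.34 to 0.97), and was below WT. Abcc4, an exporter of cyclic nucleotides and organic anions, had 9711, 4199, 2060 and 1727 counts, 2.31-fold higher in dCas9-OGA than in the D242A control.

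The next stretch held the most abundant gene of the list. Mbnl2, a muscleblind regulator of splicing, had 4843, 805, 1104 and 278 counts and a ratio of 2.57 (2.48 to 2.70). Its neighbour Rap2a, a Ras-related GTPase, had 3738, 670, 804 and 314 counts and a ratio of 2.46 (2.36 to 2.60). Both were between 4.34-fold and 5.95-fold higher in dCas9-OGA than in the D242A control and WT, and lowest in Dnmt1-/-. Ipo5 had 91032, 30130, 17372 and 19521 counts, a ratio of 1.60 (1.58 to 1.62) to dCas9-OGA-D242A and 2.39 to WT. Per kilobase of exon it was the most abundant of the listed genes in every library, with 611 cpm per kb in dCas9-OGA.

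Stk24, a serine/threonine kinase of the germinal centre kinase family, had 7849, 2586, 2556 and 2163 counts, with dCas9-OGA 3.03-fold above its D242A control and 3.06-fold above WT. Ubac2, a membrane protein of the endoplasmic reticulum, had 5349, 1885, 2754 and 1615 counts and was 2.83-fold higher in dCas9-OGA than in the D242A control. Gpr183, an oxysterol receptor that lies within Ubac2 on the other strand, had 3, 0, 0 and 2 counts. Tm9sf2, an endosomal and Golgi membrane protein, had 14768, 3646, 6231 and 3527 counts and a ratio of 2.02 (1.97 to 2.07). For Stk24, Ubac2 and Tm9sf2 the dCas9-OGA library was above each other library, and the counts of Gpr183 were too few for a comparison.

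Zic5 and Zic2, divergent zinc finger genes that help pattern the neural tube, went the other way, although the genes on both sides of them were higher. Zic5 had 194, 646, 740 and 707 counts, a ratio of -1.67 (-1.96 to -1.50), or 0.31-fold. Zic2 had 68, 419, 1056 and 761 counts, a ratio of -2.42 (-2.99 to -2.25) to dCas9-OGA-D242A and of -3.73 to WT. On one side Clybl, a mitochondrial lyase, had 2418, 916, 584 and 648 counts. On the other Pcca had 2386, 666, 223 and 376. For both Zic genes dCas9-OGA was the lowest of the 4 libraries, and for Zic2 dCas9-OGA-D242A was itself below WT by 1.31. Among the neural markers, Pax6 and Tubb3 were also at least 2-fold lower in dCas9-OGA than in the D242A control and WT, and Sox1 was higher (above). Their part in the Zic values was not tested.

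At the distal end, Tmtc4, an enzyme of the endoplasmic reticulum that mannosylates cadherins, was the last gene with enough counts (1352, 556, 257 and 291) and was 2.40-fold higher in dCas9-OGA than in the D242A control. The last 3 genes of the list had few counts in these libraries. Nalcn, the sodium leak channel, had 9, 30, 8 and 14 counts. Itgbl1, a secreted integrin-beta-like protein, had 0, 6, 0 and 2. Fgf14, an intracellular FGF that modulates sodium channels, had 7, 9, 6 and 0. All 9 annotated genes beyond Tmtc4 in the table together had 17, 45, 15 and 17 counts, so the segment could not be followed to the telomere.

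The remaining listed genes are given in brief. Kctd12, Rnf219, Ndfip2, Tgds, Dzip1, Dnajc3, Slc15a1, Dock9, Clybl, Pcca and Ggact were between 2.29-fold and 3.68-fold higher in dCas9-OGA than in the D242A control. Farp1 was 1.89-fold higher and Uggt2 1.42-fold. Scel, the claudin Cldn10 and the sulfotransferase Hs6st3 stayed under 100 counts like the other low genes named above, and Slitrk1 and Gpr183 had at most 3 counts in a library. Over the whole list, 39 genes had at least 200 counts in the 4 libraries together. The cpm was highest in dCas9-OGA for 32 of them, in WT for 5, and in dCas9-OGA-D242A and Dnmt1-/- for 1 each. The same count over all genes was not made, and the list was chosen for high values in dCas9-OGA.

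The listed genes were not the only ones of the segment. The table holds 131 other genes from Pcdh9 to the end of the chromosome, of which 11 had at least 100 counts in dCas9-OGA and dCas9-OGA-D242A; 7 of these were at least 2-fold higher and 0 lower, with a median log2 ratio of 1.76. With a minimum of 20 counts the median was 0.69 with 1 lower, with no minimum 0.17 with 1 lower, and with a pseudocount of 5 cpm 0.77. Those named here were named after their values were seen. The RNA-binding protein Rbm26 had 8944, 2644, 2441 and 1659 counts, and its ratio to dCas9-OGA-D242A was 1.76. Mir17hg and Trim52 were also higher, as were 2 noncoding genes, Gm17066 and A330035P11Rik. Gm17066 overlaps Rbm26 and A330035P11Rik starts 64 bases from Tm9sf2, and their reads may belong in part to those genes.

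The 4 others that were not 2-fold higher were Rpl36a-ps1, Tpm3-rs7, Gm10076 and B930095G15Rik. The first 3 are single-exon loci. Rpl36a-ps1 and Tpm3-rs7 are named as copies of Rpl36a and Tpm3, and reads of a gene and its copy cannot always be told apart. From Diaph3 on, 54 genes had at least 100 counts. Of these, 38 of the 48 with more than 1 exon block and 1 of the 6 with a single block were at least 2-fold higher. The shares over all genes of each class were not computed. Just before Diaph3, the single-block genes Kbtbd6 and Kbtbd7 were themselves more than 2-fold higher, with log2 ratios of 1.11 and 1.43.

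The stretch began before the first listed gene. Just outside the 92 Mb boundary, Diaph3 (chr14:86655367-87141235), a formin that nucleates actin filaments, had 5029, 1407, 566 and 1054 counts and was 3.56-fold higher in dCas9-OGA than in the D242A control. Tdrd3 (chr14:87416639-87545504), a Tudor domain protein of the topoisomerase 3B complex, had 1091, 316, 198 and 216 counts and was 3.36-fold higher. Gm10110, a processed pseudogene between them and the list, had 4532, 6156, 6501 and 3168 counts and a ratio of -0.44. Just inside the boundary lay Pcdh9, Klhl1 and Dach1, with the low counts given above.

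On the proximal side of Diaph3 a stretch of 6884055 bases up to Pcdh8 held 9 genes of the table with at most 25 counts in any library. The nearest 5 measured genes before it were Sugt1, Elf1, Wbp4, Kbtbd6 and Kbtbd7. Sugt1, a cochaperone needed for kinetochore assembly, had a ratio of 0.40 to dCas9-OGA-D242A, the transcription factor Elf1 0.37 and the splicing protein Wbp4 0.11. The single-exon genes Kbtbd6 and Kbtbd7 had ratios of 1.11 and 1.43, but their cpm was higher in WT (9.88 and 39.2) than in dCas9-OGA (3.10 and 28.3). Against WT, Sugt1 was 2.51-fold higher in dCas9-OGA and Diaph3 8.70-fold. By the ratios to the D242A control the edge fell between Sugt1 and Diaph3, in a stretch where the single libraries offered no measured gene to place it more finely.

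**Figure D2:**
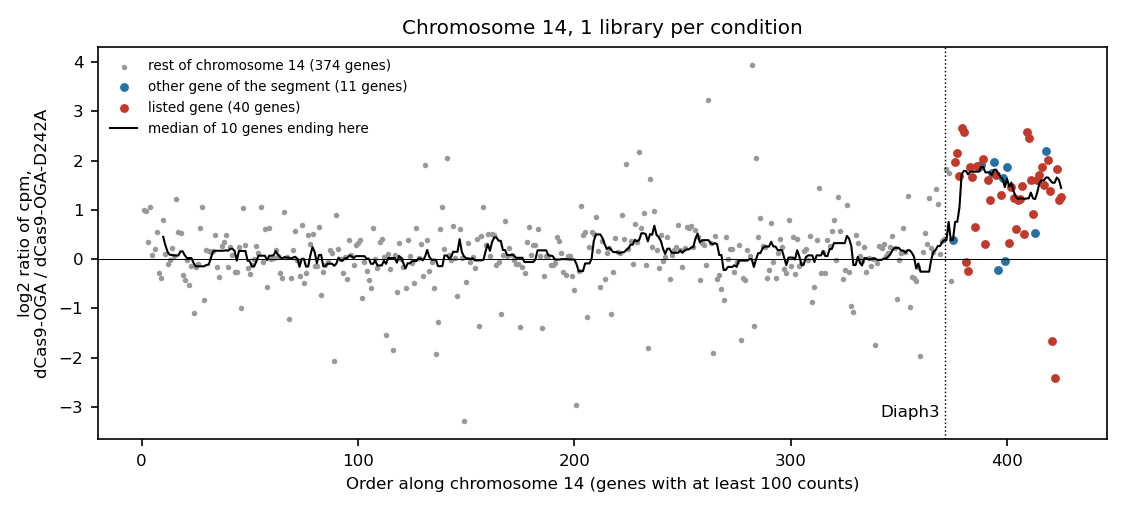
Log2 ratio of cpm in dCas9-OGA to dCas9-OGA-D242A for the 425 genes of chromosome 14 with at least 100 counts, plotted in map order (x axis, rank), with the black line giving the median of the 10 genes ending at each position. The line stays between -0.26 and 0.68 before Diaph3 (dotted) and lies at 1.22 or above once all 10 genes are from Diaph3 on, while 2 red points, Zic5 and Zic2, are far below 0.

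Along the 425 measured genes of chromosome 14, Diaph3 was number 372. The median log2 ratio of 10 neighbouring genes ran from -0.26 to 0.68 in the 362 windows before it and from 1.22 to 1.87 in the 45 windows from it on. The 371 genes before Diaph3 had a median of 0.09, with 6.20% at least 2-fold higher, and the 54 from it on had 1.60, with 72.2%. The other 19 chromosomes had medians from -0.45 (chromosome 8) to 0.33 (chromosome 1) and 1.44% to 10.7% of genes at least 2-fold higher. Chromosome 11 was at -0.43, and the remaining ones lay between 0.01 and 0.14, so chromosomes 1, 8 and 11 also stood apart. Against WT, the D242A control had medians of 0.04, 0.29 and 0.21 on chromosomes 1, 8 and 11, and dCas9-OGA 0.39, -0.20 and -0.30. The ratios to the D242A control come from the contrast that chose the list and describe it.

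**Figure D3:**
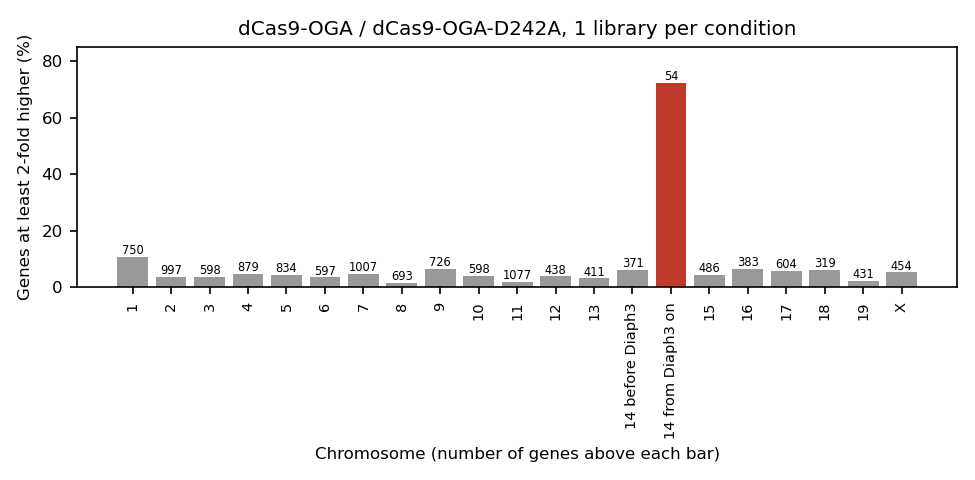
Percent of genes with at least 100 counts that reached a 2-fold higher level in dCas9-OGA than in the D242A control, by chromosome, with chromosome 14 divided at Diaph3 and the number of genes above each bar. The bar from Diaph3 on reaches 72.2% and the others stay at or under 10.7%.

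Relatives and partners of the listed genes that lie elsewhere in the genome are set beside them as a description: the listed genes were chosen for high ratios and these were not, so a higher ratio of the listed gene is fixed in part by that choice. A list of 72 such counterparts gave 54 with enough counts, whose median log2 ratio of dCas9-OGA to dCas9-OGA-D242A was -0.01, with 3 at least 2-fold higher (background 4.88%) and 8 lower (background 7.22%), or 3 lower with a pseudocount of 5 cpm. In 47 pairs with both genes measured, from 30 listed genes, the listed gene had the higher ratio in 38. The medians over these pairs were 1.66 for the listed gene and 0.06 for the counterpart. Against WT the listed gene had the higher ratio in 43 of 49 pairs, and the medians were 1.68 and 0.00.

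Some pairs belong to one complex. Pcca and Pccb encode the alpha and beta subunits of mitochondrial propionyl-CoA carboxylase, and their ratios were 1.82 and -0.20. Bora had 2.14 while its kinases Aurka and Plk1 had -0.09 and -0.16. Dis3 had 1.69 and other exosome components, Exosc3 and Exosc10, had 0.29 and 0.01. Mycbp2 had 2.02 and its F-box partner Fbxo45 0.56.

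Others belong to one family. The ES cell factors Klf2 and Klf4 had ratios of -0.90 and 0.70 beside 2.59 for Klf5. Mbnl1 and Mbnl3 had -0.19 and -1.06 beside 2.57 for Mbnl2, and Rap2b and Rap2c had 0.21 and 0.06 beside 2.46 for Rap2a. Ipo7 and Ipo4 had 0.00 and -0.26 beside 1.60 for Ipo5. The 3 counterparts at least 2-fold higher in dCas9-OGA were Pou4f2, at 3.69, Klf8, a relative of Klf12, at 1.31, and Slc15a2, at 1.07. Against WT these were at 1.44, 0.11 and 3.45, Slc15a2 thus above Slc15a1 at 2.70. Of 56 counterparts measured against WT, 8 were at least 2-fold higher (background 14%), among them Ipo7 at 1.39.

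**Figure D4:**
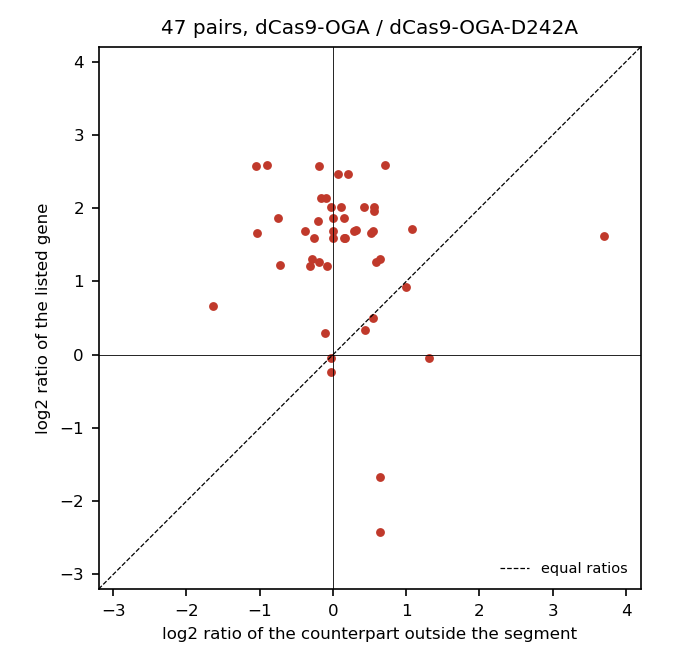
Log2 ratio of dCas9-OGA to dCas9-OGA-D242A for the listed gene (y axis) and a relative or partner encoded elsewhere (x axis), 1 point for each of 47 pairs, with the dashed line where both are equal. In 38 pairs the point lies above the line, with most points between 1 and 3 on the y axis and near 0 on the x axis.

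The list was chosen for counts mostly above those of the control libraries, so comparisons among these libraries are a description too. In dCas9-OGA-D242A against WT, 38 listed genes were measured, with a median log2 ratio of 0.08, 7 at least 2-fold higher (background 12.5%) and 5 lower (background 8.28%), or 2 and 2 with a pseudocount of 5 cpm. Mycbp2 at 2.37 and Pcca at 1.52 were among those higher, and Spry2 at -1.37 and Zic2 at -1.31 among those lower. In the single Dnmt1-/- library against WT, 38 genes gave a median of 0.09, with 5 at least 2-fold higher (background 10.5%) and 3 lower (background 6.89%). With a pseudocount of 5 cpm 3 were higher, and with no minimum count the median was -0.0033. Pibf1, Mycbp2, Pcca and Rnf219 were at least 2-fold higher in both of these comparisons, which share the WT library, and had their lowest cpm in WT.

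The 6 replicate libraries asked whether loss of Dnmt1 moved these genes in cells without dCas9-OGA. These libraries are outside the comparisons of dCas9-OGA, but the list was chosen with earlier results of these data known. They held between 26846275 and 37112247 reads on genes. Values are the deposited signal, a count divided by a scaled library size, tested as log2(signal + 0.5) with limma and Benjamini-Hochberg adjustment over 17297 genes. They were normalised apart from the single libraries, so levels are not tested between the sets. Fibroblast markers summed to a signal of 1065 to 1532 in WT and 259 to 288 in Dnmt1-/-, and 2-cell-like markers to 428 to 458 and 190 to 214. Neural markers (17.6 to 19.0 in WT and 22.0 to 24.2 in Dnmt1-/-), neural crest and melanocyte markers (62.3 to 63.3 and 87.3 to 92.6) and primitive endoderm markers (98.8 to 104 and 125 to 132) were higher in Dnmt1-/-. ES cell markers summed to 4183 to 4324 in WT and 4191 to 4358 in Dnmt1-/-. The part of these marker differences in the values below was not tested. In such bulk RNA, fewer cells of a type and less RNA per cell cannot be told apart.

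Dct and Cldn10 were too low to test and Slitrk1 and Gpr183 had no entry in these libraries. Of 51 listed genes tested, 18 rose in Dnmt1-/-, 24 fell and 9 were not called at an adjusted p of 0.05. Among all genes 35.8% rose and 35.4% fell, and 71.2% were called in either direction, beside 42 of the 51 here, so the list did not move in one direction. The median log2 difference of Dnmt1-/- to WT was -0.13, beside 0.01 for all genes. At least 2-fold changes with a call were 1 rise and 8 falls, where 3.67% and 9.41% of all genes had them. The count of falls depends on the offset of 0.5, which reduces differences of low genes. Klhl1, Nalcn and Dach1 fell by -0.88, -0.85 and -0.71 with limma but by -1.20, -1.10 and -1.70 with edgeR on the recovered reads. The 3 libraries of one group lay wholly apart from those of the other for 42 of the 51, and for 73.3% of all genes.

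**Figure D5:**
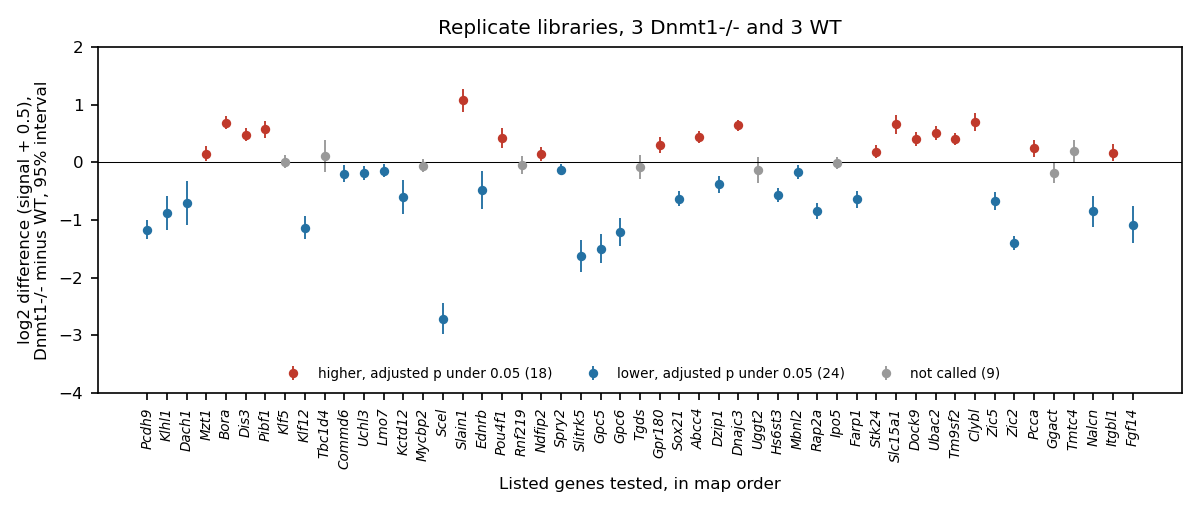
Log2 difference of Dnmt1-/- minus WT (signal + 0.5) with its 95% interval for the 51 listed genes tested, in map order, from 3 libraries of each group. Red points rose (18), blue fell (24) and grey were not called (9), and both signs occur all along the map, from Scel at -2.71 to Slain1 at 1.08.

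The 8 genes with falls of at least 2-fold included Scel, Slitrk5, Gpc5 and Gpc6. Scel, sciellin of the epidermal cornified envelope, had signals of 9.20, 8.52 and 6.97 in WT and 1.01, 0.789 and 0.700 in Dnmt1-/-, a log2 difference of -2.71 ± 0.13 (SE; limma adjusted p = 4.40e-15). Slitrk5, a synaptic adhesion protein, had 3.67, 3.12 and 2.95 in WT and 0.627, 0.756 and 0.737 in Dnmt1-/-, a difference of -1.63 ± 0.13 (limma adjusted p = 9.55e-11). The glypicans Gpc5 and Gpc6 fell together. Gpc5 had 5.57, 5.30 and 5.82 in WT and 1.53, 1.55 and 1.88 in Dnmt1-/-, and Gpc6 had 9.20, 12.0 and 8.80 against 3.38, 4.405 and 4.24, with limma adjusted p of 5.53e-11 and 2.12e-09. In each of the 4 genes all WT libraries were above all Dnmt1-/- libraries. The offset of 0.5 reduces differences of low genes: with edgeR on the recovered reads Scel was at -3.31 and Slitrk5 at -2.20.

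Pcdh9 had signals of 25.3, 24.8 and 24.4 in WT and 9.44, 11.5 and 11.4 in Dnmt1-/-, a difference of -1.17 ± 0.08 (limma adjusted p = 2.99e-12). Fgf14 had 2.98, 1.79 and 2.55 in WT and 0.871, 0.723 and 1.03 in Dnmt1-/- (limma adjusted p = 1.003e-06). Klf12 had 11.2, 11.5 and 12.8 in WT and 4.94, 5.79 and 4.68 in Dnmt1-/-, a difference of -1.13 ± 0.10 (limma adjusted p = 2.75e-10). These 3 genes fell by more than 2-fold.

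The Zic genes were lower in Dnmt1-/- as well. Zic2 had 77.0, 78.8 and 81.7 in WT and 31.1, 28.0 and 30.1 in Dnmt1-/-, a difference of -1.40 ± 0.06 (limma adjusted p = 1.23e-16). Zic5 had 25.9, 25.4 and 26.1 in WT and 16.1, 14.1 and 17.8 in Dnmt1-/-, a difference of -0.68 ± 0.08 (limma adjusted p = 2.53e-08). In the single libraries, by contrast, Zic2 differed by only -0.09 and Zic5 by 0.31 between Dnmt1-/- and WT. Among the other transcription factors and receptors, Sox21, Dach1 and Ednrb fell and Pou4f1 and Gpr180 rose, by log2 differences of -0.63, -0.71, -0.48, 0.42 and 0.30. With edgeR on the recovered reads the differences of Dach1 and Ednrb were -1.70 and -0.93, so their size depended on the method. Ednrb and Dach1 rested on as few as 10 and 6 reads in a Dnmt1-/- library. The call of Ednrb was lost without Dnmt1-/- replicate 2 (-0.40) or WT replicate 1 (-0.32). Spry2 fell by only 0.13 on the log2 scale, and its call was lost without Dnmt1-/- replicate 1 (-0.12) or 2 (-0.13) or WT replicate 3 (-0.11).

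Slain1 was the one gene that rose more than 2-fold, with signals of 5.34, 5.06 and 4.56 in WT and 10.8, 11.1 and 11.3 in Dnmt1-/-, a difference of 1.08 ± 0.09 (limma adjusted p = 3.42e-10). Smaller rises were seen in Clybl (0.70 ± 0.08), Bora (0.69 ± 0.06), Pibf1 (0.57 ± 0.07), Ubac2 (0.51 ± 0.06), Dis3 (0.48 ± 0.05), Abcc4 (0.44 ± 0.05), Tm9sf2 (0.41 ± 0.05) and Stk24 (0.19 ± 0.05). In the single Dnmt1-/- library, by contrast, Bora, Ubac2 and Tm9sf2 had log2 ratios to WT of -0.47, -0.39 and -0.44. Clybl, Pibf1, Dis3, Abcc4 and Stk24 were higher there than in WT. Rap2a, one of the most raised genes in dCas9-OGA, had 33.7, 33.5 and 37.1 in WT and 18.5, 18.8 and 19.9 in Dnmt1-/-, and fell by 0.85 on the log2 scale. Mbnl2 fell by 0.16, a call lost without Dnmt1-/- replicate 1 (-0.12) or 2 (-0.14) or WT replicate 1 (-0.14). Both of these neighbours were lower in Dnmt1-/-.

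Ipo5, the most abundant gene of the list, and Klf5 and Mycbp2 were not called. Ipo5 had 608, 610 and 633 in WT and 610, 598 and 637 in Dnmt1-/-, a difference of -0.01 with a 95% interval of -0.11 to 0.10 (limma adjusted p = 0.93). Klf5 had 213, 250 and 240 in WT and 235, 234 and 238 in Dnmt1-/-, a difference of 0.01 with an interval of -0.10 to 0.13 (limma adjusted p = 0.83). Mycbp2 had an interval of -0.16 to 0.05. For these 3 genes the groups overlapped.

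Among 18 other genes of the segment tested, 1 rose and 10 fell, with a median of -0.38. Of 65 counterparts tested, 16 rose and 29 fell, with a median of -0.13. On the rest of chromosome 14, 223 of 566 genes rose and 189 fell, with a median of 0.05.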

How the data were processed

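RNA-seq of 2 single fusion libraries, 1 further WT and 1 further Dnmt1-/- library, and 3 replicates each of WT and Dnmt1-/- cells was used. O-GlcNAc ChIP libraries and repeat counts were left out. Reads were mapped to mm10 by the authors and counted on Ensembl genes with featureCounts 1.5.0. The submitters' processing notes list TopHat2 2.0.11, Bowtie2 2.2.2 and HISAT2 2.1.0, and the labels name the TruSeq RNA v2 kit where the methods name a stranded kit, so overlapping genes are uncertain. For the single libraries the authors deposited whole counts per gene. For the replicates the authors deposited a signal (each count over a scaled library size) under headers that did not match the columns, and the values were read by column position. Steps in the signal gave back whole reads, within 1e-06 of a read, for 100% of values.

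Genes were placed with GENCODE vM21 (GRCm38). Single libraries were scaled with edgeR 4.0.16 (TMM) and described, with no test, on log2(cpm + 0.5), with a minimum of 100 counts over both libraries, and intervals came from the Wilson interval of the 2 counts. Single-library totals lay between 18693531 and 25097983 counts. Replicates were tested with limma 3.58.1 (trend, two-sided) on log2(signal + 0.5) after edgeR's filter on low values, and edgeR quasi-likelihood and DESeq2 1.42.0 on recovered reads were alternatives, as were other minimum counts, pseudocounts, scalings, a replicate block and each replicate left out. Replicate p-values measure the spread between libraries, which may be technical. Values of some single genes are not reported here. Scripts were tested on simulated data. The members, counterparts and marker lists were chosen with earlier results of these data known. Counts in every single library are given for the first and last 3 members, the 10 with most counts, and transcription factors, receptors and signalling genes. They are also given for the 5 measured members with the largest and all with a log2 ratio of dCas9-OGA to dCas9-OGA-D242A under 0.5. Signals in every replicate library are given for those called and 2-fold changed in Dnmt1-/- cells and for some others. Software was R 4.3.3, Python 3.11.15 with NumPy 2.4.6, and, for plots, matplotlib 3.10.9.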

Additional observations from a re-analysis of the deposited data

How the results depend on the processing

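The counts of listed genes at least 2-fold higher in dCas9-OGA stayed within 1.5 times the values given, against dCas9-OGA-D242A and WT, under DESeq2 size factors, minimum counts of 20 or none and a pseudocount of 5 cpm. Their median log2 ratio to dCas9-OGA-D242A was 1.23 with no minimum and 1.27 with a pseudocount of 5, and to WT 1.24 and 1.44. With a pseudocount of 5, the listed genes at least 2-fold higher and lower in dCas9-OGA-D242A than in WT were 2 and 2, and those higher in the single Dnmt1-/- library 3; with no minimum the median in that library was -0.0033. The counterparts' median against dCas9-OGA-D242A was 0.047 with DESeq2 size factors, and with a pseudocount of 5 the counterparts at least 2-fold lower were 3 against dCas9-OGA-D242A and 6 against WT. For the other genes of the segment the median against dCas9-OGA-D242A was 0.69 with a minimum of 20, 0.17 with none and 0.77 with a pseudocount of 5, and 1 gene was at least 2-fold lower with a minimum of 20 or none; against WT the median was 0.28 with no minimum and 0.59 with a pseudocount of 5, and 2 genes were lower with a minimum of 20 or none, while the pseudocount of 5 gave 4 higher and 0 lower.

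In the replicates, the 18 rises and 24 falls were 16 and 25 with edgeR, 15 and 24 with DESeq2, and 15 to 17 and 19 to 24 with 1 library left out. Calls of Mzt1, Commd6, Uchl3, Lmo7, Ednrb, Ndfip2, Spry2, Mbnl2 and Itgbl1 were lost in at least 1 alternative, Ggact (-0.20) was called only with edgeR, and the 9 genes called with a 2-fold change kept their calls in all alternatives run. Replicate numbers did not pair the libraries (correlations of same-numbered deviations 0.07, -0.02 and 0.07), and the replicate block gave 18 rises and 24 falls. Single-library values have no replicate check, and 15 of the 55 genes were too low to read.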

Other observations

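Some listed genes that were close to 0 in the single libraries had clear signals in the replicate libraries. Itgbl1 had at most 6 counts in any single library, but signals of 17.5 to 20.01 in WT and 19.6 to 21.5 in Dnmt1-/- replicates. Hs6st3, a heparan sulfate sulfotransferase, had at most 0.362 cpm in a single library and signals of 50.1 to 55.5 in WT replicates and 33.5 to 35.9 in Dnmt1-/- replicates. Pcdh9, at 0 to 2 counts in the single libraries, had signals of 24.4 to 25.3 in WT replicates. The sets were normalised separately, so these values are given side by side and not as a difference, and they were mapped with different aligners according to the processing notes, and what sets them apart was not tested.

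The single WT library had 328 counts of Mycbp2 and 223 of Pcca, below all 3 other libraries in cpm, while in the replicates Mycbp2 differed between WT and Dnmt1-/- by -0.06 on the log2 scale and Pcca by 0.24.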
